A study of Mus musculus with 48 samples.

Results

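Mice fed a starch/palmitate diet were compared with mice fed chow for the expression of immune genes in the epididymal fat pad, a depot of visceral white adipose tissue next to the testis. The comparison took the 7 starch/palmitate samples and the 8 chow samples, 15 of the 48 in the series, and the 491 of 547 panel genes whose mean count reached 10. All mice were C3H/HeOuJ, an inbred strain, and had eaten their diet freely for 6 months. The starch/palmitate diet was a custom diet with 42% of its calories from carbohydrate, as starch, and 42% from fat, as palmitate, a saturated fatty acid. Chow was a commercial diet and was not matched to the custom diets in its ingredients, so starch, palmitate and the share of fat cannot be told apart in this comparison. The custom diets sucrose/palmitate (n = 8) and starch/oleate (n = 9) have the same 42% shares and each differ from starch/palmitate in 1 ingredient, sucrose in place of starch or oleate, a monounsaturated fatty acid, in place of palmitate. The labels give no age, and do not say whether each sample was 1 animal, so the p-values measure the spread between these samples.

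Visceral fat holds adipocytes, blood vessels and many immune cells. Macrophages are the most studied of these: resident ones carry scavenger receptors such as CD163, while others gather around lipid-laden or dying adipocytes and carry CD11c, CD9 and TREM2. T cells and natural killer cells in the fat pad release interferon gamma, which makes neighbouring cells produce the chemokines CXCL9 and CXCL10, and adipocytes themselves secrete complement factors, of which adipsin is the best known. In RNA of a whole fat pad, fewer cells of a type and less RNA per cell cannot be told apart.

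Levels were read on the NanoString nCounter mouse immunology panel, in which RNA molecules are captured by barcoded probes and counted with no amplification step. Gene counts per library summed to 599327 to 691270 on chow and 474456 to 888687 on starch/palmitate. Values below are scaled counts, the counts divided by each library's relative level of the 14 reference genes. The reference level did not separate the groups (log2 difference 0.07, two-sided exact permutation test, p = 0.47). That test reads the mean level per library and does not show that each reference gene is stable between diets. After scaling, 6 of the 14 differed at an unadjusted p below 0.05 in the edgeR fit used below, by -0.39 to 0.48. Of these, 4 also passed after adjustment over the 14. Some libraries stood apart. Chow replicate 4 had the lowest macrophage counts and the highest count of Cfd. Chow replicates 1 and 2 had the highest counts of liver genes, and starch/palmitate replicates 1 and 3 of epithelial genes. The assay also counts RNAs spiked into every reaction, and these do not come from the tissue. The count of spiked control A over that of control B was 3.17 to 3.39 on chow and 2.92 to 3.16 on starch/palmitate. These ranges do not overlap (two-sided exact permutation test, p = 0.00031, with 0.00016 the smallest p that 6435 arrangements allow), so diet and this ratio cannot be told apart over these libraries.

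Against chow, 104 genes rose and 24 fell on starch/palmitate, 21.2% and 4.89% of those tested and 26.1% together, at an adjusted p below 0.05. The median of all tested genes was 0.24 on the log2 scale. Counts and medians of gene lists below stand beside these shares and this median. With TMM scaling, which moves that median to 0.06, 69 genes rose and 62 fell, so the share of rises among the calls depends on the scaling. All 69 and 24 of the 62 were among the first set of calls. Adding the positive control ratio to the fit left Plau higher and Cfb lower. All 128 genes kept their sign in that fit, with a median size of 0.60 against 0.73 and a median SE of 0.29 against 0.22. Leaving out starch/palmitate replicate 3 left 69 rises, and leaving out replicate 4 left 68. The call of 42 of the 104 risen and 12 of the 24 fallen genes held throughout. This means with any 1 library dropped and in every alternative fit that included the gene, other than the one with the control ratio. Some of them, such as Cd8a, Pdcd1, Tigit and C9, averaged too few counts to enter the fit with a mean of at least 30. Many of the genes described below are not among these 54.

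**Figure D1:**
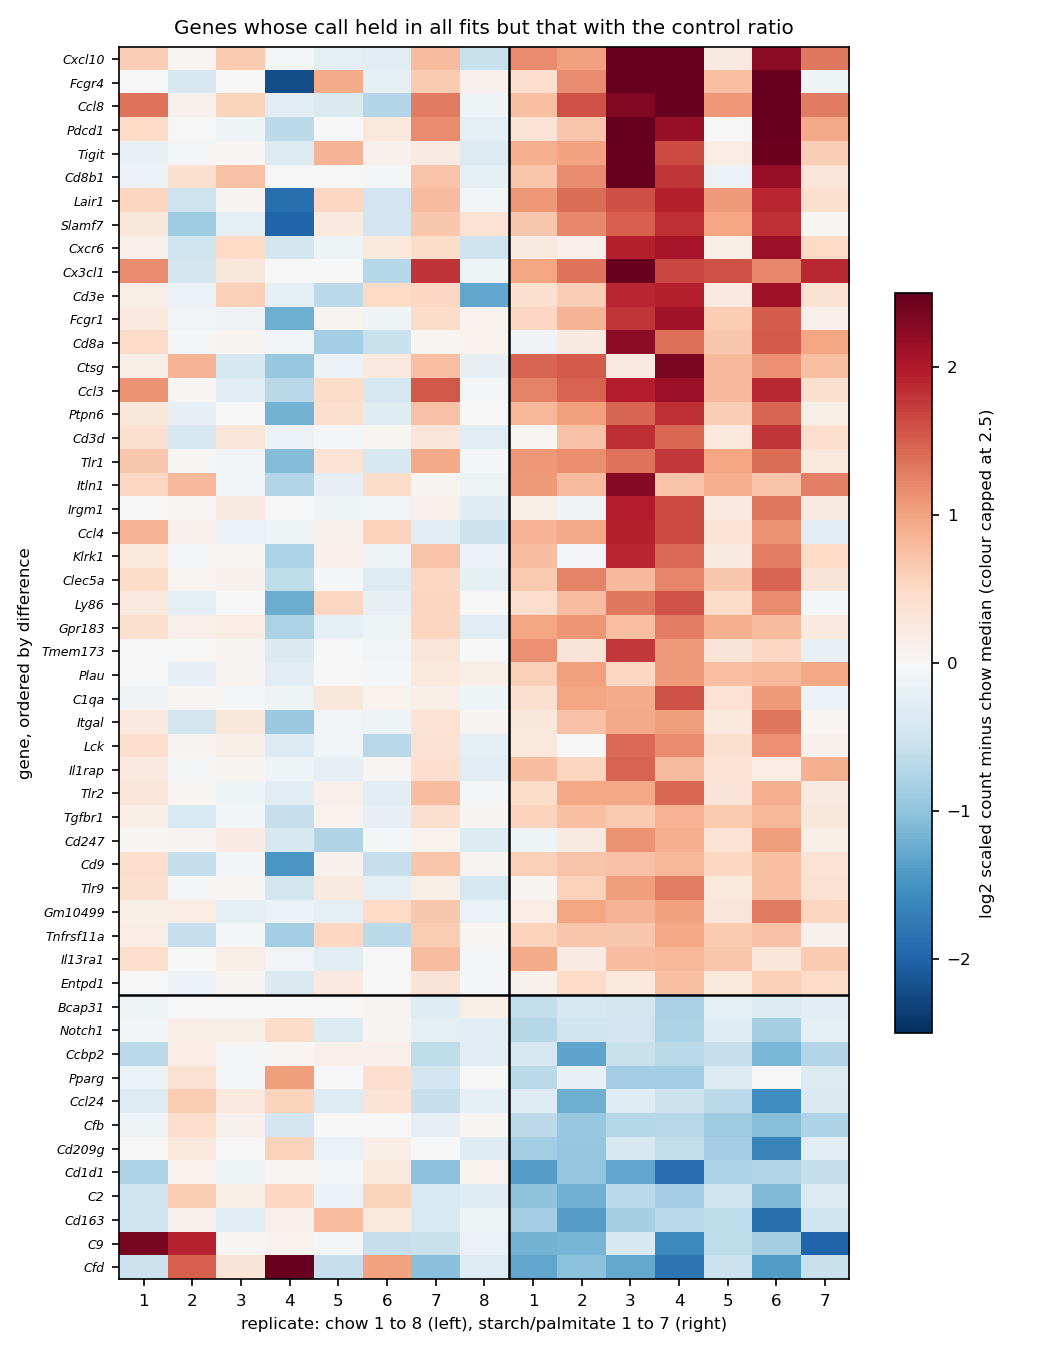
Log2 scaled count of 52 genes relative to the chow median of each gene, in 8 chow and 7 starch/palmitate libraries. They come from the 54 whose call held with each library left out and in every alternative fit that included them. The fit with the control ratio is not counted here. Rows are genes ordered by their difference and columns are libraries. Many of the risen genes are darkest in starch/palmitate replicates 3, 4 and 6.

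The genes of adipocytes were lower. All 3 of the adipocyte and lipid handling list on the panel fell, with a median difference of -0.65 against 0.24 over all genes. Cfd encodes adipsin, the serine protease that activates complement factor B. Its scaled counts were 18982 to 222161 on chow, with a median of 40102, and 10964 to 26812 on starch/palmitate, with a median of 16124. Chow replicates 2, 4 and 6 were far above the rest, and 4 of the 7 starch/palmitate samples lay below every chow sample. The log2 difference was -1.92 ± 0.48 (SE, adjusted p = 0.0029), and -1.39 to -2.06 with each library left out. Pparg, the nuclear receptor that drives adipocyte differentiation, ranged from 633 to 1826 on chow, with a median of 883, and from 480 to 889 on starch/palmitate, with a median of 692. The groups overlapped, and the difference was -0.65 ± 0.16 (adjusted p = 0.0029). Cd36, the fatty acid transporter, was at 64350 to 90905 on chow and at 42611 to 64250 on starch/palmitate. The groups met without overlapping, with a difference of -0.48 ± 0.14 (adjusted p = 0.013). Without starch/palmitate replicates 1 and 3 this was -0.38, with an adjusted p of 0.089.

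Macrophage genes showed both directions. Of the 18 genes of the macrophage list 8 rose and none fell, with a median of 0.59. With TMM scaling 6 rose, and without starch/palmitate replicates 1 and 3 there were 5. Some of the risen genes lost their call with 1 library left out, in up to 9 of the 15 such fits. Of the 4 genes of the resident macrophage list 3 fell and none rose, with a median of -0.79. Emr1, now named Adgre1, the F4/80 antigen of mouse macrophages, was at 721 to 2844 on chow, with a median of 1700, and 1645 to 5455 on starch/palmitate, with a median of 3559. The groups overlapped, with the lowest value in chow replicate 4 and the highest in starch/palmitate replicate 4. The difference was 0.88 ± 0.26 (adjusted p = 0.013). It lost its call without starch/palmitate replicate 4, with an adjusted p of 0.052.

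Among the Fc receptors for IgG, Fcgr1 and Fcgr4 rose, while Fcgr2b (-0.06 ± 0.20), Fcgr3 (0.54 ± 0.26) and Fcgrt (-0.33 ± 0.15) did not pass (adjusted p = 0.83, 0.11 and 0.084). Fcgr4, an activating receptor of monocytes and macrophages, was at 27.4 to 243 on chow, with a median of 128. On starch/palmitate it was at 174, 292, 992, 804, 215, 762 and 119 in replicates 1 to 7. Replicates 3, 4 and 6 were far above every chow sample, while replicates 1, 5 and 7 lay within the chow range. The difference was 1.84 ± 0.38, a 3.57-fold higher level (adjusted p = 0.00055). Fcgr1, the high-affinity receptor, was at 78.7 to 253 on chow and 200.1 to 784 on starch/palmitate, where 6 of 7 samples exceeded all chow samples. It rose by 1.24 ± 0.30 (adjusted p = 0.0028). Ly86, the MD-1 partner of the receptor RP105, rose by 0.87 ± 0.23 and Clec5a, a myeloid lectin that signals through DAP12, by 0.92 ± 0.20. Tlr1 and Tlr2, which pair to detect bacterial lipopeptides, rose by 1.04 ± 0.24 and 0.71 ± 0.19, and Tlr9, the receptor for unmethylated DNA, by 0.69 ± 0.19. Tlr4, the endotoxin receptor, was at 0.08 ± 0.14 and did not pass (adjusted p = 0.69). Of 34 genes of Toll-like receptors and NF-kappa B signalling 8 rose (23.5%, close to the 21.2% of all genes) and 1 fell. The median was 0.12, below the 0.24 of all genes, and TMM scaling turned it to -0.04.

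Of the 4 genes of the lipid-associated macrophage list 2 rose, Cd9 and Itgax, and 1 fell, Cd36, which adipocytes also express and which is given above. Cd9, a tetraspanin, was at 1224 to 5440 on chow, with a median of 3370, and at 4349 to 5990 on starch/palmitate, with a median of 5537. The starch/palmitate samples lay close together and chow was spread, with chow replicates 1 and 7 inside the starch/palmitate range. Cd9 rose by 0.70 ± 0.18 (adjusted p = 0.0034). Itgax, which encodes CD11c, rose by 1.00 ± 0.34 (adjusted p = 0.023), from 169 to 2808 on chow to 2100 to 4431 on starch/palmitate. Its call was lost without chow replicate 2 (adjusted p = 0.055) or chow replicate 6 (adjusted p = 0.051). Trem2, the lipid-sensing receptor of these cells, was at 144 to 1421 on chow and 555 to 1640 on starch/palmitate, and its difference of 0.60 ± 0.31 did not pass (adjusted p = 0.13, 95% interval -0.01 to 1.22). Chow replicate 4 held the lowest value of Cd9, Itgax and Trem2.

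The resident macrophage genes fell more evenly. Cd163, the haemoglobin scavenger receptor, was at 625 to 1499 on chow, with a median of 884, and at 240 to 621 on starch/palmitate, with a median of 495. The groups met without overlapping, and the difference was -0.95 ± 0.25 (adjusted p = 0.0049). Cd209g, a C-type lectin, fell by 0.84 ± 0.24 and Ccl24, an eosinophil-attracting chemokine, fell by 0.75 ± 0.23 (adjusted p = 0.0091 and 0.015). Marco, the remaining member of that list, was at -0.48 ± 0.53. The summed counts of the 4 genes were 1350 to 2123 on chow and 560 to 1212 on starch/palmitate, where replicate 6 was lowest and replicate 4 highest.

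**Figure D2:**
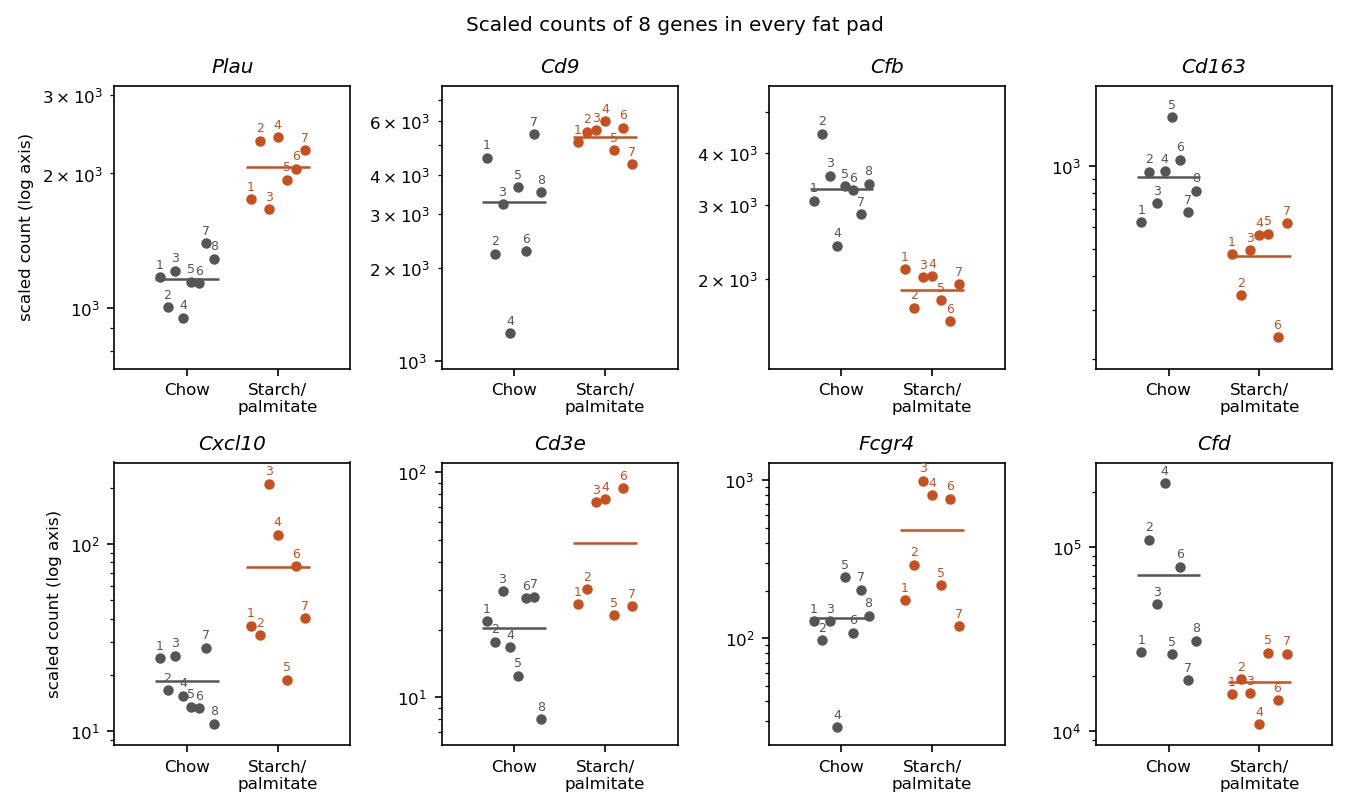
Scaled counts (log axis) of Plau, Cd9, Cfb, Cd163, Cxcl10, Cd3e, Fcgr4 and Cfd in 8 chow and 7 starch/palmitate fat pads. Each point is a library labelled with its replicate number and lines are means. Plau and Cfb separate the groups and in Cd163 they meet without overlapping. Cxcl10, Cd3e and Fcgr4 are highest in starch/palmitate replicates 3, 4 and 6.

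T cell genes rose on average and very unequally between the fat pads. Of the 16 genes of the T cell receptor complex and coreceptor list 7 rose and none fell, with a median of 0.55. Cd3e, a signalling chain of the T cell receptor complex, was at 7.97 to 29.7 on chow, with a median of 19.7. In starch/palmitate replicates 1 to 7 it was at 25.98, 30.2, 73.8, 75.7, 23.2, 85.0 and 25.4. Replicates 3, 4 and 6 were more than 2 times above the highest chow sample, and the other 4 lay near the top of the chow range. The difference was 1.25 ± 0.34 (adjusted p = 0.0065). Some of the chow values lay within the range of the negative control probes, which reached 17.7 as scaled counts. Cd3d and Cd247, further chains of the complex, rose by 1.04 ± 0.23 and 0.70 ± 0.19, and Lck, the kinase bound to the coreceptors, by 0.75 ± 0.18.

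Both chains of CD8, the coreceptor of cytotoxic T cells, were among the risen genes. Cd8a was at 4.16 to 10.4 on chow, within the range of the negative control probes, which reached 17.7 as scaled counts. On starch/palmitate Cd8a was at 7.09 to 35.4, with a median of 14.8. Replicates 3, 4 and 6 held the 3 highest values and alone exceeded every negative probe. The difference was 1.22 ± 0.33 for Cd8a (adjusted p = 0.0055) and 1.43 ± 0.34 for Cd8b1 (adjusted p = 0.0028). With chow near the background, these values may understate the fold. Cd4, the coreceptor of helper T cells, was at 17.9 to 43.4 on chow and 21.3 to 51.6 on starch/palmitate and did not pass (0.42 ± 0.26, adjusted p = 0.21). Foxp3, the factor of regulatory T cells, stayed close to the background in both groups, at 0.22 ± 0.31 (adjusted p = 0.62).

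Pdcd1 and Tigit, inhibitory receptors of activated T cells, were highest in the same 3 fat pads. Pdcd1, which encodes PD-1, was at 5.96 to 21.2 on chow, with a median of 9.36. In starch/palmitate replicates 1 to 7 it was at 11.8, 15.1, 92.1, 42.2, 9.43, 64.3 and 17.99. Its difference of 1.71 ± 0.35 (adjusted p = 0.00053) rests on replicates 3, 4 and 6, the only samples above the chow range, and remained 1.28 to 1.92 with each library left out. Tigit, an inhibitory receptor of T cells and natural killer cells, was at 5.96 to 13.5 on chow and at 14.2, 15.1, 53.6, 23.4, 8.57, 41.4 and 11.6 on starch/palmitate. It rose by 1.56 ± 0.32 (adjusted p = 0.00053). All chow values of Tigit and most of Pdcd1 lay within the range of the negative probes, so these differences are taken against background, as for Cd8a. Ctla4 was at 33.4, 19.5 and 8.72 in replicates 3, 4 and 6, the last inside the chow range of 4.16 to 15.1, and did not pass (0.64 ± 0.32, adjusted p = 0.12). In all, 4 of the 12 regulatory T cell and checkpoint genes rose, with a median of 0.44. Besides Tigit and Pdcd1 these were Icos and Gata3. Icos, a costimulatory receptor, rose by 0.68 (adjusted p = 0.03) and lost its call without any of chow replicates 3, 4 and 8 or starch/palmitate replicates 3, 4 and 6, with an adjusted p of up to 0.12. Gata3 is described below with the genes high in single fat pads.

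Of the 17 genes of the natural killer and cytotoxic list 5 rose (29.4%, against 21.2% of all genes) and none fell. With TMM scaling 3 rose. Klrk1 held its call with each library left out, while some others of the 5 lost theirs, in up to 7 of the 15 fits. The median was 0.50, against 0.24 over all genes. Klrk1, the activating receptor NKG2D, was at 23.8 to 67.5 on chow and 40.5 to 155 on starch/palmitate and rose by 0.95 ± 0.23 (adjusted p = 0.0028). Slamf7, a receptor of natural killer cells and macrophages, rose by 1.33 ± 0.28 (adjusted p = 0.00055), and Cxcr6, a chemokine receptor of tissue T cells, by 1.27 ± 0.32 (adjusted p = 0.0029). Cxcr6 was at 169.9, 183.5 and 198.3 in starch/palmitate replicates 3, 4 and 6. The other starch/palmitate samples, at 48.5 to 62.45, lay within the chow range of 30.9 to 62.8. Gzma, a granzyme of cytotoxic cells, was at 13.5 to 39.8 on chow and 36.7 to 51.6 on starch/palmitate, at 0.61 ± 0.27 (adjusted p = 0.087). The T cell rise was also set beside a list of genes expressed in lymph nodes. None of its 13 tested genes passed, with a median of 0.29. Their summed counts were 522 to 1447 on chow and 901 to 2207 on starch/palmitate. The highest of the latter were 2207, 1417 and 1292 in replicates 4, 6 and 3, the fat pads that were also highest in T cell genes. Their part in the T cell values was not tested.

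The interferon-induced genes showed the same 3 fat pads. Of the 21 on the list 8 rose, none fell, and all 21 differences were above 0, with a median of 0.44. With TMM scaling 4 rose, with a median of 0.24, and without starch/palmitate replicates 1 and 3 there were 3, with a median of 0.26. Their summed counts were 6168 to 8187 on chow. In starch/palmitate replicates 1 to 7 the sums were 7435, 6915, 16599, 12698, 7371, 10698 and 7310. Replicates 3, 4 and 6 exceeded all chow samples and the other 4 lay within the chow range. Cxcl10, a chemokine that attracts T cells through CXCR3, had the largest difference of the list. It was at 10.96 to 27.95 on chow, with a median of 16.1, and at 36.6, 32.6, 210.4, 112, 18.9, 76.3 and 40.2 on starch/palmitate. Only replicate 5 lay within the chow range, and the difference was 2.01 ± 0.39, 4.04-fold (adjusted p = 0.00035). The chow median lay within the range of the negative probes, which reached 17.7, so this fold is taken partly against background.

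Irgm1, an interferon-inducible GTPase of macrophage autophagy, was at 344 to 498 on chow and at 474, 400.5, 1671, 1315, 502, 1063 and 494 on starch/palmitate. Again replicates 3, 4 and 6 stood apart from values close to chow, with a difference of 0.99 ± 0.24 (adjusted p = 0.0029). Cxcl9, also a ligand of CXCR3, was at 256 to 450.1 on chow and at 2120, 1034 and 1059 in these replicates, with 279 to 340.1 in the rest. Its difference of 1.21 ± 0.38 (adjusted p = 0.017) lost its call without replicate 3 (adjusted p = 0.16). Irf1, the transcription factor of this response, rose by 0.57 ± 0.18 (adjusted p = 0.017), and lost its call without replicate 3 (adjusted p = 0.11) or replicate 4 (adjusted p = 0.06). Ifng itself, the interferon gamma gene, was at 5.68 to 14.3 on chow and 8.47 to 14.8 on starch/palmitate, within the range of the negative probes, and a difference was not detectable at this depth (0.12 ± 0.28). Cxcr3 was at 0.37 ± 0.20 (adjusted p = 0.16).

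Of the 10 MHC class II presentation genes tested 2 passed, H2-Ab1 and H2-DMa, a share close to the 21.2% of all genes, and the median was 0.56. None passed with TMM scaling or without replicates 1 and 3. H2-Ab1, a chain of the class II molecule, was at 237 to 501 on chow and at 1134, 1076 and 782 in starch/palmitate replicates 3, 4 and 6, with 351 to 391 in the rest. Its difference of 0.70 ± 0.24 (adjusted p = 0.026) lost its call with any of chow replicates 2 and 4 and starch/palmitate replicates 3, 4 and 6 left out (adjusted p from 0.0501 to 0.14), and with TMM scaling (adjusted p = 0.07). H2-DMa, the chaperone that loads class II molecules, was at 0.61 ± 0.24 (adjusted p = 0.04). It lost its call without any of chow replicates 2, 4, 6 and 8 or starch/palmitate replicates 3, 4 and 6, with an adjusted p of up to 0.21.

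Promoter sequences from RefSeq (GRCm38.p6) were searched for the letters of 4 factor motifs, because the interferon and Fc receptor genes above were high in the same fat pads. The window was the 250 bases before each gene's start, on both strands, and 364 of the tested genes had a promoter in the table. The interferon-stimulated response element, spelled GAAA and GAAA with any 2 bases between, was in 2.98% of all 32851 promoters, in 6.04% of those of tested genes and in 6 of the 82 risen genes with a promoter (7.32%), which include Cxcl10, Fcgr4 and Irgm1. The gamma-activated site, spelled TTCNNNGAA, was in 7.02%, 11.8% and 15.9% of the same sets, the last being 13 genes with Irf1, Irf8, Fcgr1, Cd3d and Tlr1 among them. The NF-kappa B letters, GGGA and TTCC with any 2 bases between, were in 1.21% of all promoters, in 4.12% of those of tested genes and in 2 risen genes (2.44%), Cxcl10 and Mme. The C/EBP letters TTGCNNAA were in 9.56% of all promoters, in 12.6% of those of tested genes and in 12 risen genes (14.6%). Of the 16 fallen genes with a promoter, 3 held the C/EBP letters (18.75%), C3, C9 and Pparg. The gamma-activated site was in 1 of the 16 (6.25%), and the response element and the NF-kappa B letters were each in 0. The motifs do not overlap in the sequences printed, except that Irgm1 holds a pair of response elements that share letters. A match is a description of these letters, and no binding was measured. The stretches around the matches are shown 5′ to 3′ on the gene's strand, with the matching letters in capitals, for 5 risen genes and for C9.
Cxcl10 (chr5:92349009-92349132, minus strand, response element, then NF-kappa B): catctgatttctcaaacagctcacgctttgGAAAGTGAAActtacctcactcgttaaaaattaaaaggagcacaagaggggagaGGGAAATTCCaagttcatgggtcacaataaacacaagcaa
Irgm1 (chr11:48871421-48871480, minus strand, a pair of response elements): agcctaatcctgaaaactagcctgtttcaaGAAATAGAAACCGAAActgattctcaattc
Fcgr4 (chr1:171018823-171018892, plus strand, response element): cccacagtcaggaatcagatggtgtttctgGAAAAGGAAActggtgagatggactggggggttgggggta
Irf1 (chr11:53769894-53769962, plus strand, gamma-activated site): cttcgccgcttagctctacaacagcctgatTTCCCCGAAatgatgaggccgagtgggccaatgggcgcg
Fcgr1 (chr3:96294040-96294108, minus strand, gamma-activated site): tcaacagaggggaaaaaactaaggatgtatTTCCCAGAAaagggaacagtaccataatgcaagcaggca
C9 (chr15:6445184-6445251, plus strand, C/EBP): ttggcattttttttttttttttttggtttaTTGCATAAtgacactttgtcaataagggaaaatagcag

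Of the 24 chemokines tested 8 rose and 1, Ccl24, fell, with a median of 0.61. Ccl8, a monocyte chemokine made by macrophages, was at 539 to 2300 on chow, with a median of 905, and at 1512, 2732, 4484, 11176, 1913, 5988 and 2209 on starch/palmitate. Chow replicates 1 and 7 reached into the starch/palmitate range, and the difference was 1.83 ± 0.48 (adjusted p = 0.0052). Ccl3 and Ccl4, chemokines of macrophages and cytotoxic lymphocytes, rose by 1.11 ± 0.29 and 0.95 ± 0.25 (adjusted p = 0.0042 and 0.0052). Most chow values of Ccl4 lay within the range of the negative probes, so its difference is taken against background. Cx3cl1, the membrane-bound chemokine of endothelium and adipocytes, rose by 1.26 ± 0.31 (adjusted p = 0.0029). Ccl2, the main monocyte attractant of fat, was at 263 to 1173 on chow and 652 to 1294 on starch/palmitate and did not pass (0.27 ± 0.25, adjusted p = 0.4). Ccbp2, now named Ackr2, a decoy receptor that removes CC chemokines, fell by 0.64 ± 0.21 (adjusted p = 0.02).

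Of the 18 inflammatory cytokines tested only Il15, a growth factor of natural killer cells, passed (0.50 ± 0.18, adjusted p = 0.036), and the median was 0.15, or -0.02 with TMM scaling. Il15 lost its call without any of chow replicates 3, 4, 6 and 8 or starch/palmitate replicates 1, 3 and 4, with an adjusted p of up to 0.14. Tnf was at 10.7 to 28.8 on chow and 12.7 to 47.6 on starch/palmitate, with a difference of 0.43 and a 95% interval of -0.13 to 0.99. Il1b was at 14.3 to 32.2 and 17.99 to 66.4, with a difference of 0.71 and an interval of -0.27 to 1.70. Il6 was at 3.99 to 21.5 and 8.27 to 21.8, with a difference of -0.06 and an interval of -0.59 to 0.47. Tnf and Il6 counts reached into the range of the negative probes, as did the lowest chow count of Il1b. Small differences in these genes were not detectable at this depth.

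**Figure D3:**
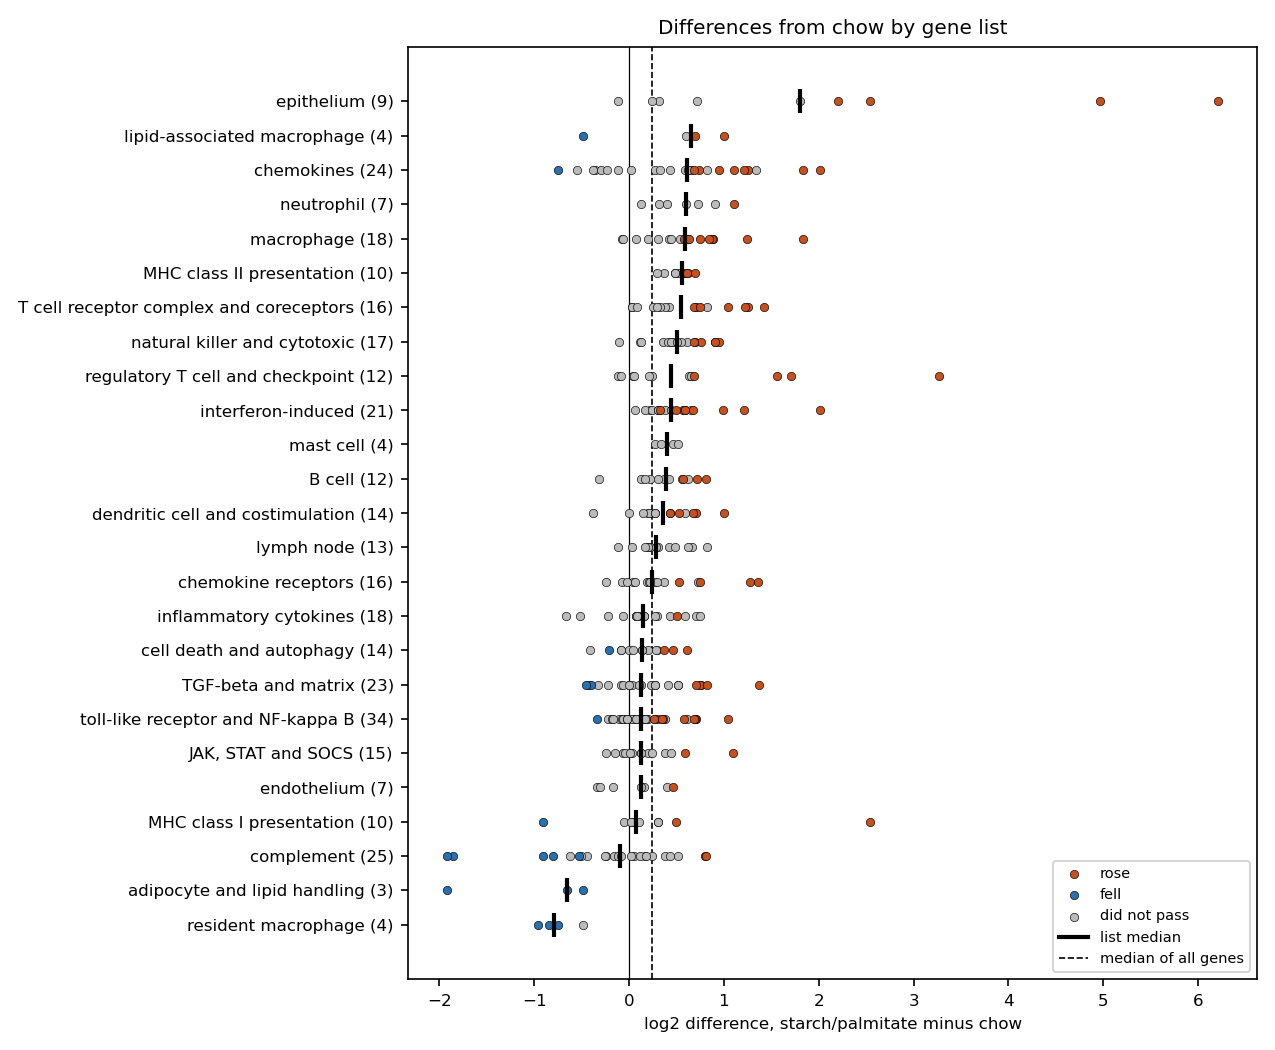
Log2 difference of starch/palmitate from chow for each tested gene of 25 gene lists, with the number of tested genes in brackets. Points are genes, coloured by whether they rose, fell or did not pass, black bars are list medians, and the dashed line is the median of all 491 genes at 0.24. The resident macrophage and adipocyte lists lie furthest left.

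Among complement genes, adipsin, factor B and C3 of the alternative pathway fell, as did C2 and C9, and chains of C1q rose. Of the 25 tested 2 rose and 5 fell, with a median of -0.09. Cfb, factor B of the alternative pathway, was at 2400 to 4446 on chow, with a median of 3293, and at 1584 to 2106 on starch/palmitate, with a median of 1937. The groups did not overlap, and it fell by 0.81 ± 0.14 (adjusted p = 0.00014). Cfp, which encodes properdin and stabilises the same pathway, was at 0.02 ± 0.24 and did not pass (adjusted p = 0.95). C3, the central protein on which the pathways meet, was at 6131 to 8985 on chow and 3537 to 6900 on starch/palmitate, and fell by 0.52 ± 0.17 (adjusted p = 0.022). Its call was lost without starch/palmitate replicate 6 (adjusted p = 0.062). C2, the classical counterpart of factor B, was at 913 to 2000 on chow and 563 to 1018 on starch/palmitate, and fell by 0.91 ± 0.19 (adjusted p = 0.00065).

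C1qa and C1qb, chains of the recognition protein C1q that tissue macrophages make, rose by 0.80 ± 0.23 and 0.81 ± 0.27 (adjusted p = 0.0092 and 0.017), the latter not without starch/palmitate replicate 4 (adjusted p = 0.085). C1qa was at 3475 to 4633 on chow, a narrow range, and at 3425 to 11534 on starch/palmitate, where replicate 7 lay below all chow samples and the other 6 above them.

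C9, a component of the membrane attack complex made mainly in liver, was at 111 and 81.1 in chow replicates 1 and 2, at 14.3 to 22.7 in the other chow samples, and at 5.29 to 16.2 on starch/palmitate. Its difference was -1.86 ± 0.35 (adjusted p = 0.0003). Without both chow libraries it was -0.84 and still passed. All starch/palmitate values lay below the highest negative probe, at 17.7, so the size of this fall is uncertain. Vtn, the plasma protein vitronectin, was at 226 and 113 in the same libraries, and its difference of -0.89 ± 0.26 (adjusted p = 0.011) fell to -0.29 without them (adjusted p = 0.31). It also lost its call without chow replicate 1 alone (adjusted p = 0.081). The summed counts of 9 hepatocyte genes were 1018 and 711 in chow replicates 1 and 2, 238 to 437 in the other chow samples and 222 to 689 on starch/palmitate. The highest of the latter was replicate 7, of which C4bp made 315. Hamp, C8a, C8b and Mbl2 lay within the range of the negative probes in every starch/palmitate sample. The part of these genes in the complement values other than as given was not tested.

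Genes of matrix remodelling included the only gene that was higher on starch/palmitate with no overlap. Plau, the urokinase plasminogen activator, was at 1170, 1004, 1212, 951, 1145, 1135, 1398 and 1290 in the 8 chow samples and at 1751, 2370, 1662, 2415, 1937, 2051 and 2258 on starch/palmitate. Every starch/palmitate sample lay above every chow sample, which held for 0.204% of the genes tested, and 3 genes (0.611%), Cfb, Cd163 and Cd36, showed the reverse. Plau rose by 0.83 ± 0.14 (adjusted p = 0.00011), and by 0.79 to 0.87 with each library left out. Tgfbr1, a TGF-beta receptor chain, was at 664 to 1299 on chow and 1203 to 1803 on starch/palmitate and rose by 0.71 ± 0.13 (adjusted p = 0.0003). Only chow replicate 7 reached into the starch/palmitate range.

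Lair1, an inhibitory receptor for collagen on immune cells, rose by 1.37 ± 0.28 (adjusted p = 0.00053), from 46.5 to 296 on chow to 227 to 659 on starch/palmitate. Of the 23 genes of the TGF-beta and matrix list 5 rose (21.7%, close to the 21.2% of all genes) and 2 fell. The median was 0.13, below the 0.24 of all genes, and -0.02 with TMM scaling. Il1rap, the shared chain of the interleukin 1 and 33 receptors, rose by 0.73 ± 0.12 (adjusted p = 0.00011), and Il13ra1, a chain of the interleukin 13 receptor, by 0.49 ± 0.11 (adjusted p = 0.002). Tmem173, now named Sting1, the sensor of cyclic dinucleotides, rose by 0.84 ± 0.17 (adjusted p = 0.00055).

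Among further falls, Cd1d1, which presents lipid antigens to natural killer T cells, was at 5643 to 13758 on chow, with a median of 11433, and at 3067 to 7598 on starch/palmitate, with a median of 5769. Chow replicates 1 and 7 lay inside the starch/palmitate range, and the difference was -0.91 ± 0.22 (adjusted p = 0.0028). Bcap31, a chaperone of the endoplasmic reticulum, fell by 0.41 ± 0.08 (adjusted p = 0.00039), and Notch1, a receptor of cell fate signalling, by 0.55 ± 0.15 (adjusted p = 0.0063).

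The largest rises came from genes that were high in single fat pads. Defb1, an epithelial beta defensin, was at 3564 and 17524 in starch/palmitate replicates 1 and 3, at 10.9 to 193 in the other 5 and at 7.97 to 221 on chow. Pigr, the receptor that carries IgA across epithelia, was at 8629 in replicate 3 and at 13.1 to 273 in the others, against 3.12 to 151 on chow. The summed counts of the 9 genes of the epithelium list were 2270 to 4572 on chow and 1707 to 7352 on starch/palmitate outside replicates 1 and 3, which held 14460 and 43788. The fit gave 6.21 ± 1.51 for Defb1 and 4.96 ± 1.05 for Pigr (adjusted p = 0.0028 and 0.00065), and 4 of the 9 genes passed. Without replicates 1 and 3 none did, with Defb1 at 0.77 (adjusted p = 0.68), Pigr at 0.83 (adjusted p = 0.46) and Ceacam1, an epithelial adhesion molecule, at -0.12 (adjusted p = 0.91). H2-Q10, a class I gene whose near-identical relatives could share its probe, was at 8669 in replicate 3 and at 196 to 390 in the others, and lost its call without replicate 3 (adjusted p = 0.65). Mme, a cell surface peptidase, was at 17940 in replicate 3 and also lost its call without it (adjusted p = 0.65).

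Gata3, a factor of T helper and epithelial cells, was at 1760, 650.4 and 829.8 in replicates 1, 3 and 7 and at 22.9 to 197 on chow. Without replicates 1 and 3 its difference was 2.11, from 3.27 (adjusted p = 0.12). Ptgs2, the inducible cyclooxygenase, was at 5920 in replicate 7 and at 27.2 to 49.6 in the other 6, against 33.1 to 330.2 on chow. Its difference was 3.49 ± 1.34 (adjusted p = 0.049), and -1.05 without replicate 7. It also lost its call without starch/palmitate replicate 3 or 4 and without any chow replicate other than 4, with adjusted p-values of 0.052 to 0.082. Replicate 3 is at the same time among those highest in T cell and interferon genes. With replicates 1 and 3 left out, Cxcl10, Cd3e, Pdcd1, Tigit and Fcgr4 kept their calls, and Cxcl9, Irf1, H2-Ab1 and Icos lost theirs. Rises then numbered 3 of 21 on the interferon-induced list, 2 of 17 on the natural killer and cytotoxic list, 2 of 12 on the regulatory T cell and checkpoint list and 6 of 16 on the T cell receptor list.

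**Figure D4:**
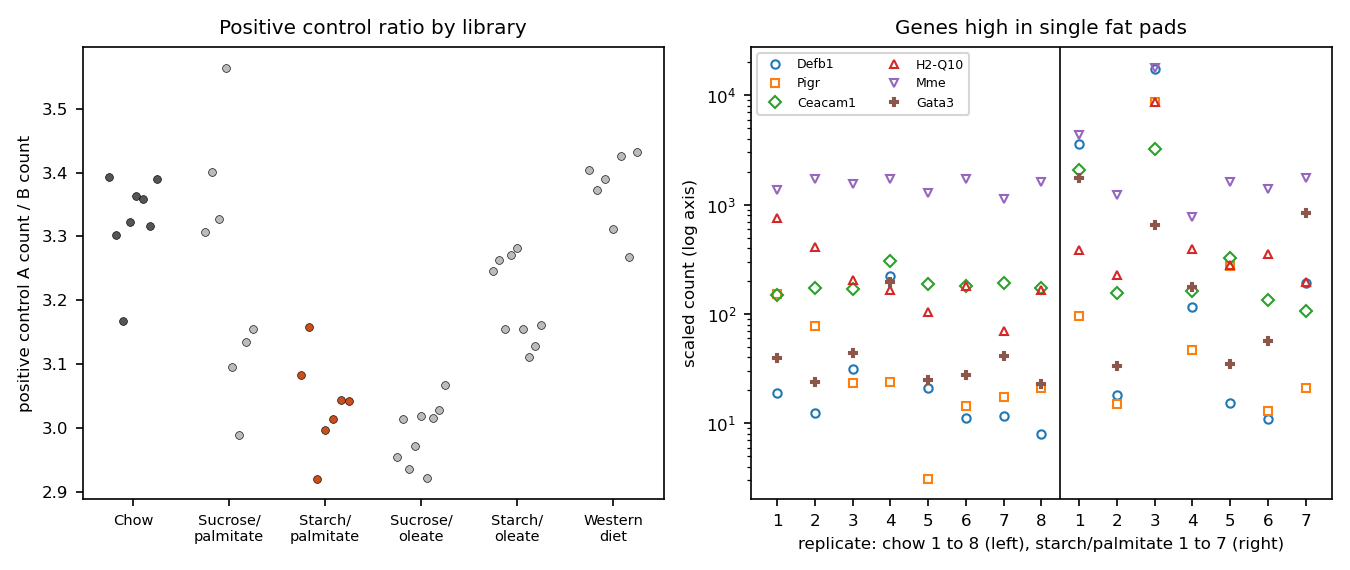
Left, ratio of positive controls A and B in each of the 48 libraries by diet, with chow in dark grey and starch/palmitate in orange, which do not overlap. Right, scaled counts (log axis) of 6 genes in the chow and starch/palmitate libraries, with starch/palmitate replicates 1 and 3 highest for Defb1.

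The starch/palmitate group was also set against the 2 diets that differ from it in 1 ingredient. Against sucrose/palmitate 7 genes were higher and 3 lower, 1.43% and 0.611% of those tested and 2.04% together. Of the higher genes 5 were those of single fat pads, Defb1, Pigr, Ceacam1, H2-Q10 and Mme. The others were Tigit (1.60 ± 0.32, adjusted p = 0.0019) and Cxcl9 (1.36 ± 0.39, adjusted p = 0.047). None of the 7 passed without starch/palmitate replicate 3. The lower genes were Il2ra, Ski and Stat4, and none of these was called without starch/palmitate replicate 1, 3 or 5. With only these groups in the fit no gene passed in either direction. The positive control ratio of sucrose/palmitate, 2.99 to 3.56, overlapped that of starch/palmitate.

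None of the genes that did not overlap between starch/palmitate and chow passed against sucrose/palmitate. Plau was at 0.16 (95% interval -0.12 to 0.44), Cfb at -0.07 (-0.35 to 0.21), Cd36 at -0.06 (-0.34 to 0.23) and Cd163 at -0.44 (-0.94 to 0.06). These intervals do not show that the diets act alike. Fcgr4 was at 1.29 ± 0.38 (adjusted p = 0.053) and Pdcd1 at 1.11 ± 0.34 (adjusted p = 0.066), close to the threshold.

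Against starch/oleate 41 genes were higher and 119 lower on starch/palmitate, 8.35% and 24.2% of those tested and 32.6% together. Without starch/palmitate replicates 1 and 3 these were 24 and 75. Without replicate 3 alone 27 were higher. With the positive control ratio in the fit they were 35 and 132. Its range on starch/oleate was 3.11 to 3.28, overlapping starch/palmitate at its lower end. The adipocyte genes were higher with palmitate, Cfd by 2.19 ± 0.45 (adjusted p = 0.00038) and Pparg by 0.84 ± 0.15 (adjusted p = 0.0001), while Cd36 was at -0.22 ± 0.14 (adjusted p = 0.23). Cd1d1 was higher by 1.50 ± 0.21 and Bcap31 by 0.56 ± 0.08 (adjusted p = 1.3e-06 for both), Ccl24 by 0.73 ± 0.22 (adjusted p = 0.011).

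Macrophage genes were lower on starch/palmitate than on starch/oleate. Of the 18 macrophage genes 11 were lower and none higher, with a median of -0.63 against -0.13 over all genes. Itgax was at -0.92 ± 0.33 (adjusted p = 0.031), Trem2 at -1.06 ± 0.30 (adjusted p = 0.0078), Cd9 at -0.52 ± 0.17 (adjusted p = 0.019), Tgfbr1 at -0.67 ± 0.13 (adjusted p = 0.00027) and Lair1 at -0.73 ± 0.27 (adjusted p = 0.034). Of the 16 T cell receptor and coreceptor genes 2 were lower and none higher. Cd3e was at -0.07 ± 0.32, Pdcd1 at 0.69 ± 0.32 and Tigit at 0.54 ± 0.29, none of which passed (adjusted p from 0.088 to 0.89), while Cd4 was lower, at -0.81 ± 0.25 (adjusted p = 0.011). Cxcl9 was higher by 1.23 ± 0.37 (adjusted p = 0.011) and H2-Ab1 by 0.62 ± 0.23 (adjusted p = 0.037). Cd163 and Cfb, which did not overlap between starch/palmitate and chow, were at 0.25 ± 0.24 and 0.15 ± 0.14 (adjusted p = 0.46 and 0.43).

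**Figure D5:**
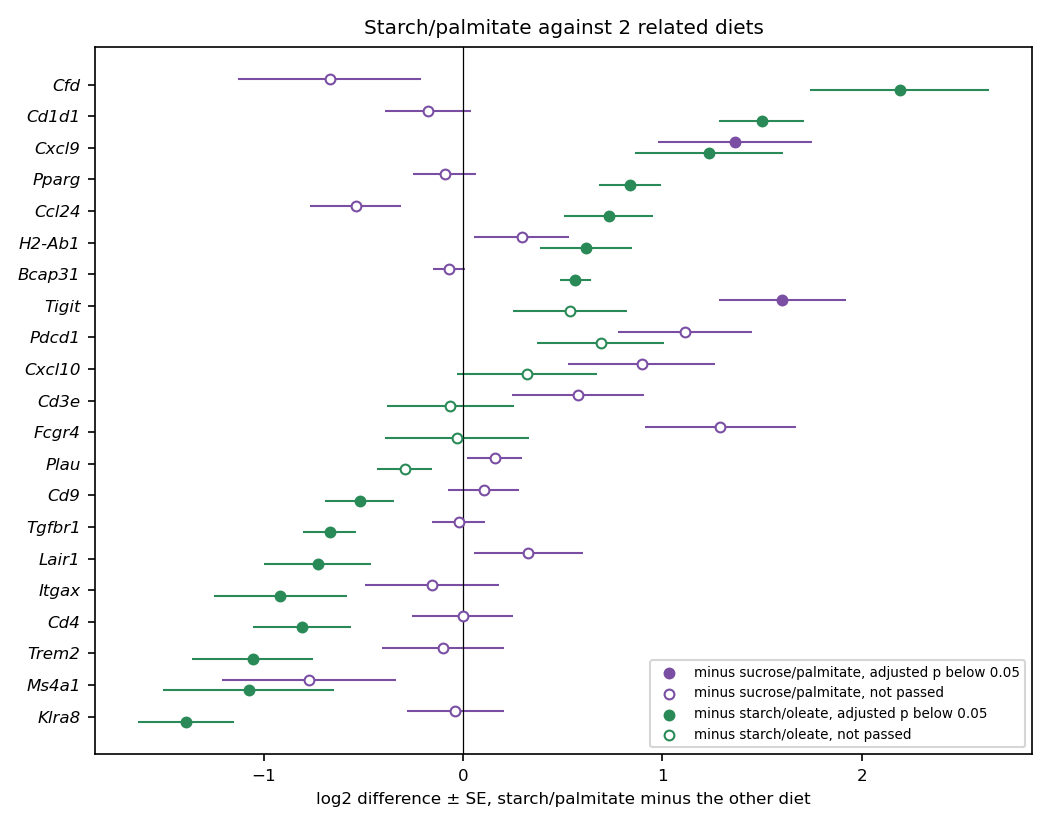
Log2 difference ± SE of starch/palmitate from sucrose/palmitate (purple) and from starch/oleate (green) for 21 genes. Filled points passed at an adjusted p below 0.05. Cfd and Cd1d1 are higher than on starch/oleate and not separated from sucrose/palmitate.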

How the data were processed

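Deposited values were whole-number counts per probe, not scaled between samples, judged from the table; the tool and version that made these counts are not given in the sources used here. The lowest deposited count is 1, in 151 of 27600 values. Each library was divided by its geometric mean of the 14 reference genes. Genes averaging 10 counts or more over the 48 samples were tested with edgeR 4.0.16 (glmQLFit, glmQLFTest, R 4.3.3), with all 6 diets in 1 fit, a mean per diet, two-sided p-values and Benjamini-Hochberg adjustment over the 491 genes, threshold 0.05. Errors are SE. Group comparisons of a single library measure used exact permutation tests. Negative probes averaged 7.48 counts on chow and 8.50 on starch/palmitate. Replicate numbers were not treated as pairs. Deviations of same-numbered libraries had a mean correlation of -0.13 over 7 pairs, against 0.02 over 49 others, which cannot exclude pairing. No 2 libraries were copies (lowest chi-square per degree of freedom 17.2). Named genes came from the 12 highest and 12 lowest differences, members of 25 lists and a set always reported. The text names a subset chosen after the values were seen, only in part for stability. Comparison, members and lists were chosen with earlier results of these data known. Some genes stayed in the fit and the counts but are withheld and not reported here. Symbols follow the table; 549 of 561 accessions matched RefSeq. The fit was tested on simulated data. Alternatives were TMM, no filter, a mean of at least 30, a replicate block, only the compared groups, DESeq2 1.42.0, the control ratio as a covariate and fits without named libraries.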

Additional observations from a re-analysis of the deposited data

Results flagged for a closer look

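Of 160 pairs of gene and group examined, over 80 genes, 14 held a sample far from the rest of its group. For independent pairs about 1 in 20, or 8, would do so. The genes were chosen with the values known and can vary together, so 14 cannot be judged against 8. Of the 14, 9 were in chow replicate 4. It was lowest of its group for Fcgr1 (scaled count 78.7), Fcgr4 (27.4), Ly86 (258), Itgax (169) and S100a8 (112), and highest for Defb1 (221), Ceacam1 (303), Gata3 (197) and Ptgs2 (330.2). Starch/palmitate replicate 3 was highest for Itln1 (57.7) and H2-Q10 (8669). Ptgs2 was at 5920 in starch/palmitate replicate 7, Cd4 lowest at 21.3 in starch/palmitate replicate 1, and Tigit highest of chow at 13.5 in replicate 5.

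Some genes below the count filter exceeded every chow sample and every negative probe in single starch/palmitate libraries. Aire, the thymic transcription factor, was at 26.3 and Cd96, a receptor of T and natural killer cells, at 18.2 in replicate 3. Il17a, the interleukin 17A gene, was at 18.5 and 19.1 in replicates 6 and 7. The highest negative probe in these groups was at 17.7, so all but Aire lie close to background.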

How the results depend on the processing

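Genes higher than chow numbered 69 with TMM scaling, 1 with the control ratio as a covariate and 68 to 134 with each library left out; genes lower numbered 62 with TMM, 65 with DESeq2, 1 with the covariate, 15 without starch/palmitate replicates 1 and 3, and 18 to 27 with each library left out. With the replicate number as a block 88 rose and 19 fell. Against sucrose/palmitate (7 and 3), higher genes numbered 1 with the block and 0 with only the compared groups, with the covariate or without replicates 1 and 3, and lower genes 0, 0, 1 and 0; with each library left out these were 0 to 10 and 0 to 5, the lower genes ending without starch/palmitate replicate 1, 3 or 5. Against starch/oleate (41 and 119), higher genes numbered 72 with TMM, 88 with DESeq2 and 24 without replicates 1 and 3, lower genes 77 with DESeq2 and 75 without them, and 27 to 47 and 85 to 151 with each library left out. The cause of these changes was not tested.

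Signs turned, mostly for genes that had not passed. With the covariate Cd79b was at -0.063, Foxp3 at -0.31, Ifng at -0.019 and Ms4a1 at -0.12. With TMM Ifng was at -0.064 and Psmd7 at -0.0042, and with DESeq2 Psmd7 was at -0.0026. Without replicates 1 and 3 Ceacam1 was at -0.12, Mme at -0.16 and Il6 at 0.017, and without chow 1 and 2, a choice made after seeing the data, Il6 was at 0.067. Leaving out 1 library put Il6 at -0.21 to 0.053, Foxp3 at -0.049 to 0.36, Ptgs2 at -1.05 to 4.36 and S100a8 at -0.079 to 0.32. The covariate lost more calls than any other setting. Genes near the negative probes, such as Cd8a, Foxp3 and Ifng, are limited by counting.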

Other observations

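B cell and mast cell genes, not described above, gave weaker values. Of 12 B cell genes 3 rose, Blnk, Cd22 and Pou2f2 (25%, against 21.2% of all genes). The list median was 0.39, against 0.24 over all genes. Cd22 lost its call without any of chow replicates 2, 3, 4 and 6 or starch/palmitate replicates 2, 4 and 6 (adjusted p up to 0.15), and Pou2f2 without chow or starch/palmitate replicate 4 (adjusted p up to 0.081). The list median was -0.09 with the positive control ratio in the fit. Ms4a1, which encodes CD20, was at 23.9 to 83.9 on chow and 28.6 to 217 on starch/palmitate, highest in replicate 4, and did not pass (0.62 ± 0.44). None of 4 mast cell genes passed, with a median of 0.40. Kit, the stem cell factor receptor of mast cells, was at 28.1 to 76.1 and 42.5 to 111 (0.52 ± 0.22, adjusted p = 0.071).

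Of 7 neutrophil genes 1 rose, Il1r2, a decoy receptor for interleukin 1, with a median of 0.60. It lost its call without chow replicate 4 or 6 or starch/palmitate replicate 1 or 4, with an adjusted p of up to 0.23 without starch/palmitate replicate 1. S100a8, an abundant neutrophil calcium-binding protein, was at 112 to 1251 on chow and 508 to 1320 on starch/palmitate, at 0.13 ± 0.47. Entpd1, the ectonucleotidase CD39, rose by 0.41 ± 0.12 (adjusted p = 0.011), and Gpr183, an oxysterol receptor that guides immune cells, rose by 0.86 ± 0.21 (adjusted p = 0.0029), with 6 of 7 samples above all chow samples.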
